A study of Homo sapiens with 24 samples.

Results

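Differentiated keratinocytes labelled KAT2A_KD were compared with differentiated keratinocytes labelled KAT2B_KD. The comparison rests on 4 of the 24 RNA sequencing libraries of the series, 2 in each group, chosen by their genotype and stage labels, and no control (NT) library enters the contrast. All 4 come from N/TERT-1 cells (nTERT-1 in the labels), 1 human keratinocyte line immortalised with telomerase, so both groups share that background. The deposited sample table puts the Differentiated stage at day 4, after a Subconfluent and a Confluent stage. Polyadenylated RNA was selected and sequenced single-end after a strand-preserving preparation. The labels state neither how the knockdowns were made nor whether the libraries of a group came from separate cultures, so p-values measure the spread between libraries, which may be technical. The libraries are called KAT2A_KD 1 and 2 and KAT2B_KD 1 and 2. In the deposited sample table they carry the replicate numbers 2 and 3.

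KAT2A and KAT2B are paralogous lysine acetyltransferases that take the same place in the coactivator complexes SAGA and ATAC, where they acetylate histones and other proteins. Keratinocytes that leave the basal layer first make spinous keratins and then, in the granular layer, the proteins of the cornified envelope, a crosslinked protein and lipid shell. Many of those envelope proteins are encoded in the epidermal differentiation complex, a gene cluster that holds the LCE and SPRR families. Type I interferons act through transcription factors that bind a short promoter element, the ISRE, of antiviral genes.

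Each target gene was lower in the libraries labelled as its knockdown. KAT2A stood at 3.03 and 4.94 CPM (the gene's counts relative to the scaled library total) in KAT2A_KD, against 13.6 and 17.0 CPM in KAT2B_KD. KAT2B stood at 43.7 and 39.6 CPM in KAT2A_KD, against 4.58 and 8.59 CPM in KAT2B_KD. Neither pair of groups overlapped. In the edgeR quasi-likelihood fit KAT2A fell by 1.95 on the log2 scale in KAT2A_KD (SE 0.478, adjusted p = 0.0332), a call lost without KAT2A_KD 1, KAT2A_KD 2, KAT2B_KD 1 or KAT2B_KD 2 (adjusted p = 0.312, 0.0899, 0.0858 and 0.115). KAT2B was higher by 2.65 (SE 0.496, adjusted p = 0.00546), lost without KAT2A_KD 1 (0.0572) or KAT2B_KD 1 (0.103).

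The 4 libraries held 13517620 to 16054003 counts and 16272 to 17183 genes with a read. Pearson's r of log2(CPM + 0.5) across genes, which are not independent replicates, was 0.980 within KAT2A_KD and 0.971 within KAT2B_KD. Between the groups it was 0.963 to 0.973, so KAT2B_KD 2 lay as close to KAT2A_KD 2 as to KAT2B_KD 1. All 8 keratinocyte markers had reads, with summed levels of 52880 and 51140 CPM in KAT2A_KD against 73840 and 48480 CPM in KAT2B_KD. The 7 melanocyte markers summed to 9.17 and 7.09 CPM in KAT2A_KD against 9.63 and 6.95 CPM in KAT2B_KD, with TYR, TYRP1 and DCT at 0 in all 4. The 7 fibroblast markers summed to 36.4 and 38.7 CPM in KAT2A_KD against 33.6 and 31.9 CPM in KAT2B_KD, nearly all COL1A1. The 4 leukocyte markers summed to 64.2 and 66.5 CPM in KAT2A_KD against 60.3 and 31.5 CPM in KAT2B_KD, mostly CD68, with CD3E at 0 in all 4.

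Most of the genes that differed were higher in KAT2A_KD, among them all 16 LCE genes, 7 of 10 SPRR genes and 19 of 42 interferon response genes tested. Of 15757 genes tested, 375 passed at an adjusted p under 0.05 (2.38%). Of these 319 were higher in KAT2A_KD (2.02%) and 56 lower (0.355%), and 124 were higher and 6 lower by at least 4-fold. The number depended on single libraries. It was 92 higher and 5 lower without KAT2A_KD 1, 239 and 19 without KAT2A_KD 2, 133 and 14 without KAT2B_KD 1, and 224 and 68 without KAT2B_KD 2. In these 4 fits all 375 genes kept their direction, and 74 of them, 69 higher and 5 lower, passed every time. A gene that passed and is given with no lost call is among the 74. The 375 genes were chosen by their difference in the same libraries, so a kept direction was largely given in advance. In bulk RNA, fewer cells of a type and less RNA per cell cannot be told apart, in these counts as in all that follow.

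**Figure D1:**
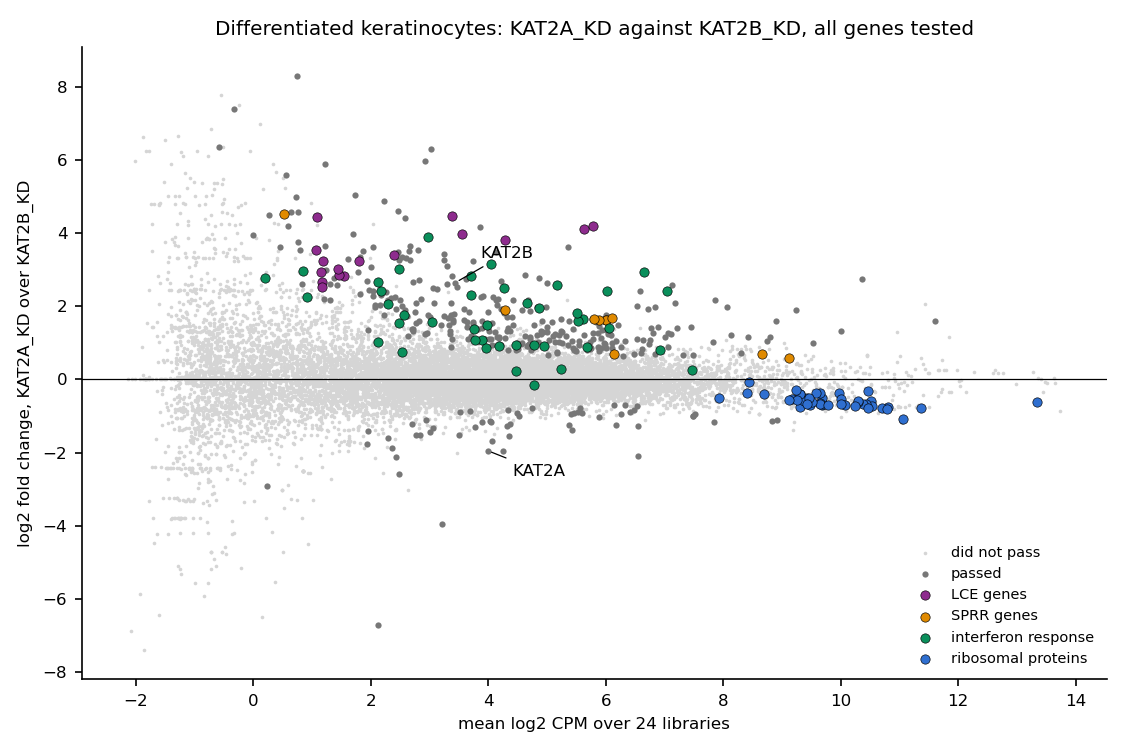
Log2 fold change of KAT2A_KD over KAT2B_KD at Differentiated (y) against mean log2 CPM over the 24 libraries (x), 1 point for each of 15757 genes, with genes that passed in dark grey and 4 gene lists in colour whether or not they passed. The LCE, SPRR and most interferon response genes lie above 0, all 44 ribosomal protein genes lie below 0, and 319 of the 375 genes that passed are higher in KAT2A_KD.

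The late cornified envelope (LCE) genes encode small proteins that are crosslinked into the envelope late in its assembly. All 16 tested rose in KAT2A_KD, with a median log2 difference of 3.33 against 0.0 over all genes tested, and in all 16 the groups did not overlap, as in 6172 of the 15757 genes (39.2%). LCE3D stood at 94.4 and 63.7 CPM in KAT2A_KD against 4.02 and 4.63 CPM in KAT2B_KD. It was 18.2-fold higher (log2 4.18, SE 0.299, adjusted p = 5.53e-07). Its neighbour LCE3E stood at 82.6 and 57.8 CPM in KAT2A_KD against 3.27 and 4.71 CPM in KAT2B_KD (log2 4.12, SE 0.269, adjusted p = 2.55e-07). Both KAT2A_KD libraries were far above both KAT2B_KD libraries for these genes, with KAT2A_KD 1 the higher of its pair.

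LCE3C had 31.3 and 25.2 CPM in KAT2A_KD against 2.34 and 1.72 CPM in KAT2B_KD. LCE3B had 18.3 and 13.8 CPM in KAT2A_KD against 1.31 and 0.747 CPM in KAT2B_KD. LCE3A had 17.8 and 11.7 CPM in KAT2A_KD against 0.374 and 0.897 CPM in KAT2B_KD, 22.1-fold higher (log2 4.47, SE 0.503, adjusted p = 0.00013). These 3 share no stretch of 50 bases with another annotated gene. LCE1B (11.5 and 4.76 CPM in KAT2A_KD against 1.22 and 0.523 CPM in KAT2B_KD) passed every time as well. As in LCE1B, KAT2A_KD 1 was more than 2 times as high as KAT2A_KD 2 in each of the other LCE1 genes and the LCE2 genes. Of these 9 genes all were lost without KAT2A_KD 1 (adjusted p = 0.133 to 0.426) or KAT2B_KD 1 (0.0512 to 0.151), and 8 without KAT2B_KD 2, where LCE5A was lost too (0.0522 to 0.144). Most of the LCE1 and LCE2 genes share sequence with each other, LCE1C with 22.6% and LCE2C with 28.3% of their 50-base windows found in another gene, and their separate values are uncertain.

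LCE3D shares 14.01% of its windows with LCE3E, and over the 24 libraries the ratio of the 2 counts varied no more than sampling noise (chi-square per degree of freedom 0.45, ratios 0.667 to 1.83), so these 2 genes cannot be fully told apart either. Their promoters are alike as well. The 150 bases before each start (RefSeq, GRCh38.p14, minus strand) are shown because the pair had the lowest p-values of its family, with runs of at least 15 bases that occur in both in capitals, 81 bases in each.
LCE3D, chr1:152580517-152580666: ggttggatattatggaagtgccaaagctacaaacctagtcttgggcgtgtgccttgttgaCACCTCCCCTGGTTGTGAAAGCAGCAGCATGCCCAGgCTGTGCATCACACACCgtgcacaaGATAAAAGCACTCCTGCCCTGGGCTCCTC
LCE3E, chr1:152566781-152566930: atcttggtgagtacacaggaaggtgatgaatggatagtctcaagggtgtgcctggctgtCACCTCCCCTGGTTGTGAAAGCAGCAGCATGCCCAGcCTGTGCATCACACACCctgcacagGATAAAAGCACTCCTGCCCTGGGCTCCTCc
The shared runs lie in the part nearest the start. Among 15 LCE promoters of 300 bases (250 before to 50 after the start), 7 held TATAAA on the gene's strand (46.7%), against 7.71% of all 27305 promoters, and 0 held the AP-1 motif TGANTCA on either strand, against 7.76%. No LCE3 promoter held TATAAA. Relative to the start, the matches began at -205 in LCE1A, -220 in LCE1E, and -46 to -30 in the LCE2 genes and LCE5A.

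The SPRR genes encode small proline-rich proteins that bridge other envelope proteins. Of 10 tested, 7 rose in KAT2A_KD and 3 did not pass, with a median log2 difference of 1.64. SPRR4 stood at 6.39 and 3.59 CPM in KAT2A_KD against 0.281 and 0.149 CPM in KAT2B_KD (log2 4.51, SE 0.755, adjusted p = 0.00513). SPRR2F stood at 208 and 179 CPM in KAT2A_KD against 73.5 and 49.8 CPM in KAT2B_KD (log2 1.65, SE 0.334, adjusted p = 0.00973). SPRR2A, SPRR2B, SPRR2D, SPRR2E and SPRR2G rose by 1.61 to 1.89 on the log2 scale. All 10 genes were higher in both KAT2A_KD libraries than in either KAT2B_KD library. Over all genes tested the groups did not overlap, in either direction, in 39.2%. All 7 calls were lost without KAT2A_KD 1 (adjusted p = 0.0568 to 0.208) or KAT2B_KD 2 (0.0534 to 0.133), and SPRR2A also without KAT2A_KD 2 (0.0506). The SPRR2 genes, other than SPRR2G, share 18.2 to 32.7% of their windows with other genes, and their separate values are uncertain, whereas SPRR4 shares none.

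SPRR1A, SPRR1B and SPRR3 did not pass. SPRR1B stood at 2375 and 1629 CPM in KAT2A_KD against 1509 and 1156 CPM in KAT2B_KD (log2 0.59, adjusted p = 0.460). Of 8 SPRR promoters, 6 held the AP-1 motif (75.0%), among them SPRR genes that passed and SPRR genes that did not. The matches of 3 that passed are shown with 10 bases on each side, the motif in capitals (GRCh38.p14, minus strand).
SPRR2A, chr1:153057693-153057719: atggcttctgTGAGTCAggagagctta
SPRR2F, chr1:153113696-153113722: agggcctctgTGAGTCAggagcactta
SPRR2G, chr1:153151054-153151080: atgtcccaagTGAATCActgtgcactt
A motif match describes the letters only, since binding was not measured.

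Among granular layer and cornified envelope genes, 11 of 24 tested rose and 0 fell, with a median log2 difference of 1.73. ASPRV1, a protease that processes profilaggrin, stood at 123 and 63.1 CPM in KAT2A_KD against 8.88 and 6.35 CPM in KAT2B_KD (log2 3.62, SE 0.347, adjusted p = 1.78e-05). LOR encodes loricrin, the main protein of the envelope, and stood at 90.0 and 31.9 CPM in KAT2A_KD against 3.37 and 3.36 CPM in KAT2B_KD (log2 4.18, SE 0.441, adjusted p = 0.000277). CNFN (cornifelin) had 224 and 204 CPM in KAT2A_KD against 70.6 and 55.8 CPM in KAT2B_KD (log2 1.76). CRCT1, encoded within the epidermal differentiation complex, had 30.6 and 33.1 CPM in KAT2A_KD against 2.81 and 4.33 CPM in KAT2B_KD (log2 3.14). These 4 genes passed without each library in turn, and both KAT2A_KD libraries lay above both KAT2B_KD libraries.

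The other 7 were FLG2, RPTN, CDSN, KPRP, HOPX, SCEL and SPINK5. The filaggrin relative FLG2 stood at 4702 and 2047 CPM in KAT2A_KD against 332 and 683 CPM in KAT2B_KD, and RPTN (repetin) at 988 and 712 CPM in KAT2A_KD against 208 and 173 CPM in KAT2B_KD. CDSN, the adhesion protein of corneodesmosomes, stood at 236 and 126 CPM in KAT2A_KD against 20.2 and 47.1 CPM in KAT2B_KD. All 7 were lost without KAT2A_KD 1 (adjusted p = 0.0749 to 0.349), 5 without KAT2B_KD 1 (0.0616 to 0.213), HOPX and SPINK5 without KAT2B_KD 2 (0.088 to 0.181), and HOPX without KAT2A_KD 2 (0.117). With DESeq2, FLG2 and SPINK5 did not pass (adjusted p = 0.303 and 0.0695). FLG itself did not pass at 11080 and 3491 CPM in KAT2A_KD against 1149 and 2323 CPM in KAT2B_KD (log2 2.07, SE 0.669, adjusted p = 0.128), and nor did the transglutaminase TGM3 (log2 -0.03, adjusted p = 0.989) or the caspase CASP14 (log2 0.15, adjusted p = 0.944).

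Kallikreins are the serine proteases that cut corneodesmosomes when cells are shed, and SPINK proteins inhibit them. Of 16 tested, 9 rose and 0 fell, with a median log2 difference of 1.81. KLK6 stood at 59.4 and 21.0 CPM in KAT2A_KD against 3.46 and 3.74 CPM in KAT2B_KD (log2 3.48, SE 0.43, adjusted p = 9.35e-05), and KLK7, a main shedding protease, at 114 and 74.2 CPM in KAT2A_KD against 21.5 and 25.9 CPM in KAT2B_KD (log2 1.99, SE 0.27, adjusted p = 0.000277). The inhibitor gene SPINK7 stood at 6.39 and 13.5 CPM in KAT2A_KD against 0.281 and 0.299 CPM in KAT2B_KD (log2 5.05, SE 0.652, adjusted p = 0.000199). These 3 passed without each library, and proteases and inhibitors rose together. KLK12, KLK13, KLK14, SPINK5, SPINK6 and WFDC12 rose by 1.59 to 3.36, and all 6 were lost without KAT2A_KD 1 (adjusted p = 0.055 to 0.349) or KAT2B_KD 2 (0.0565 to 0.111). Without KAT2B_KD 1, KLK13, KLK14 and SPINK5 were lost (0.0681 to 0.213), and without KAT2A_KD 2, SPINK6 (0.0538). KLK5, the initiating protease of the cascade, was at 1452 and 1333 CPM in KAT2A_KD against 1013 and 783 CPM in KAT2B_KD and did not pass (log2 0.63, adjusted p = 0.247).

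**Figure D2:**
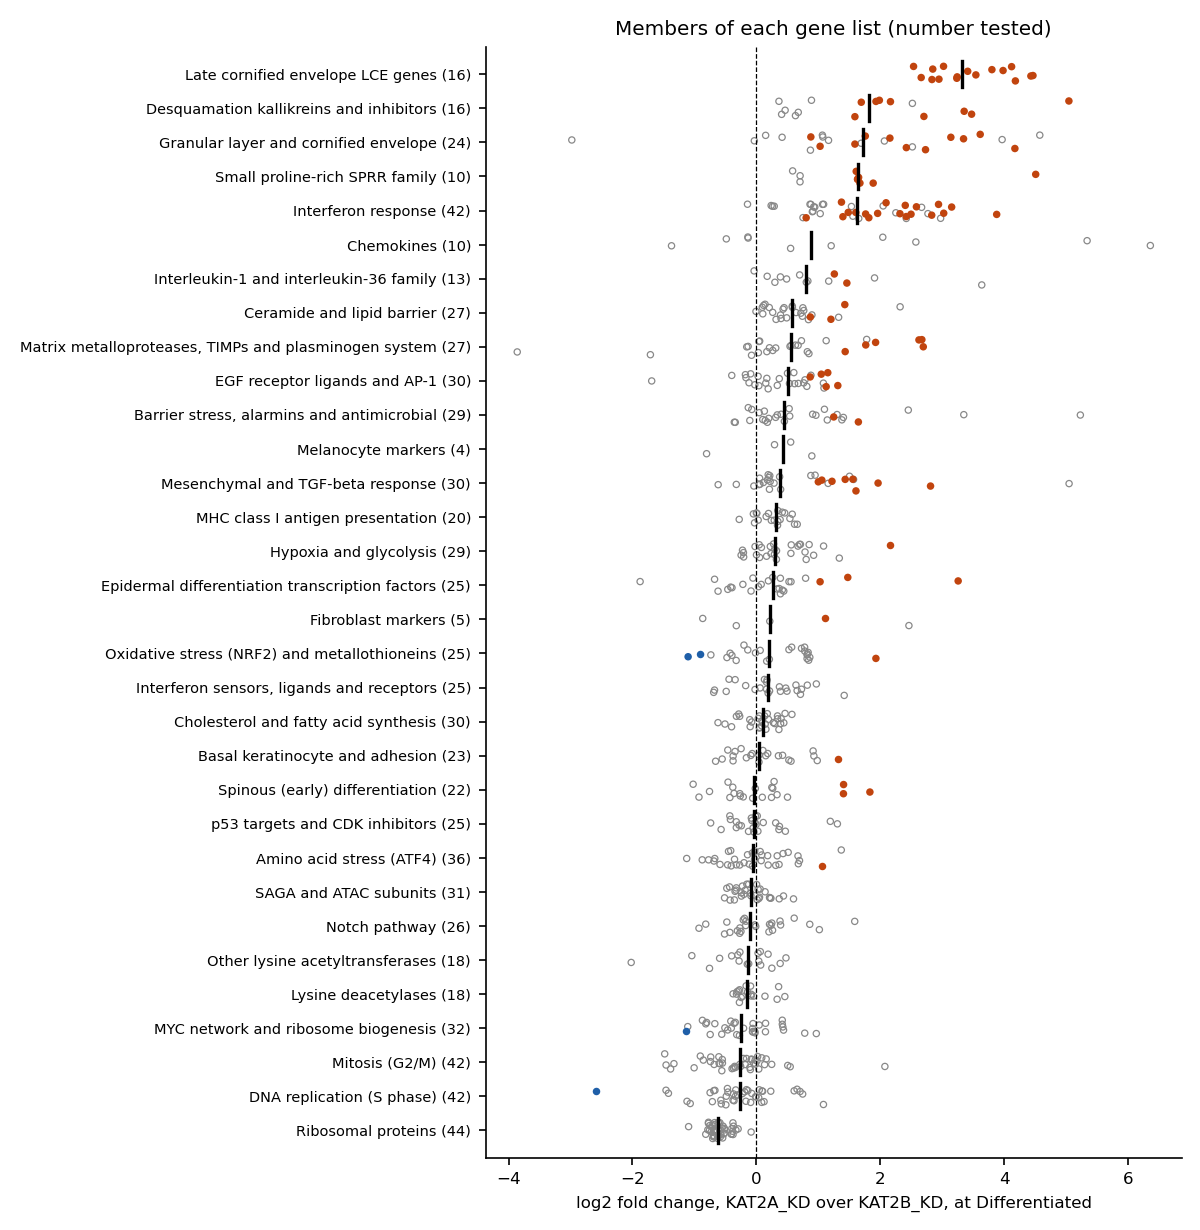
Log2 fold change of KAT2A_KD over KAT2B_KD at Differentiated for every tested member of 32 gene lists, ordered by median (black bar), with members that passed filled (orange-red higher, blue lower in KAT2A_KD) and the others open; the dashed line is the median of all genes tested. The LCE list has the highest median at 3.33 and all 16 members filled, and the ribosomal protein list the lowest at -0.61 with no member filled.

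Of 22 spinous genes, markers of earlier differentiation, 3 rose and 0 fell. Their median log2 difference was -0.04, and was 0.10 without KAT2B_KD 1 and 0.03 without KAT2B_KD 2. Involucrin (IVL), an early envelope scaffold, stood at 79.9 and 41.2 CPM in KAT2A_KD against 15.6 and 18.3 CPM in KAT2B_KD (log2 1.83, SE 0.27, adjusted p = 0.000629). CALML5 and SBSN each rose by 1.41, and both were lost without KAT2A_KD 1, KAT2B_KD 1 or KAT2B_KD 2 (adjusted p = 0.0572 to 0.43). KRT1, a spinous keratin, stood at 5842 and 4182 CPM in KAT2A_KD against 10600 and 6312 CPM in KAT2B_KD and did not pass (log2 -0.75, adjusted p = 0.209), nor did its partner KRT10 (log2 -0.46, adjusted p = 0.607). Of 23 basal and adhesion genes 1 rose, and the laminin chain genes LAMA3 and LAMB3 did not pass at log2 0.98 and 0.92 (adjusted p = 0.0981 and 0.0983).

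Of 27 ceramide and lipid barrier genes 3 rose, with a median log2 difference of 0.58. SPTSSB, a small subunit of serine palmitoyltransferase, stood at 378 and 386 CPM in KAT2A_KD against 157 and 127 CPM in KAT2B_KD (log2 1.43, SE 0.246, adjusted p = 0.00303). UGCG, which makes glucosylceramide, rose by 0.87, and the acylceramide hydroxylase CYP4F22 by 1.21. Both were lost without KAT2A_KD 1 (adjusted p = 0.0848 to 0.377), KAT2B_KD 1 (0.0635 to 0.0851) or KAT2B_KD 2 (0.0956 to 0.124), and UGCG also without KAT2A_KD 2 (0.0861).

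Of 25 epidermal transcription factors 3 rose. The nuclear receptor RORA rose by 1.48 (adjusted p = 0.00762), lost without KAT2A_KD 1, KAT2B_KD 1 or KAT2B_KD 2 (0.0519 to 0.156), and HOPX by 1.03. GRHL3, KLF4 and OVOL1 had log2 0.04, 0.42 and 0.80 and did not pass (adjusted p = 0.974, 0.506 and 0.119).

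**Figure D3:**
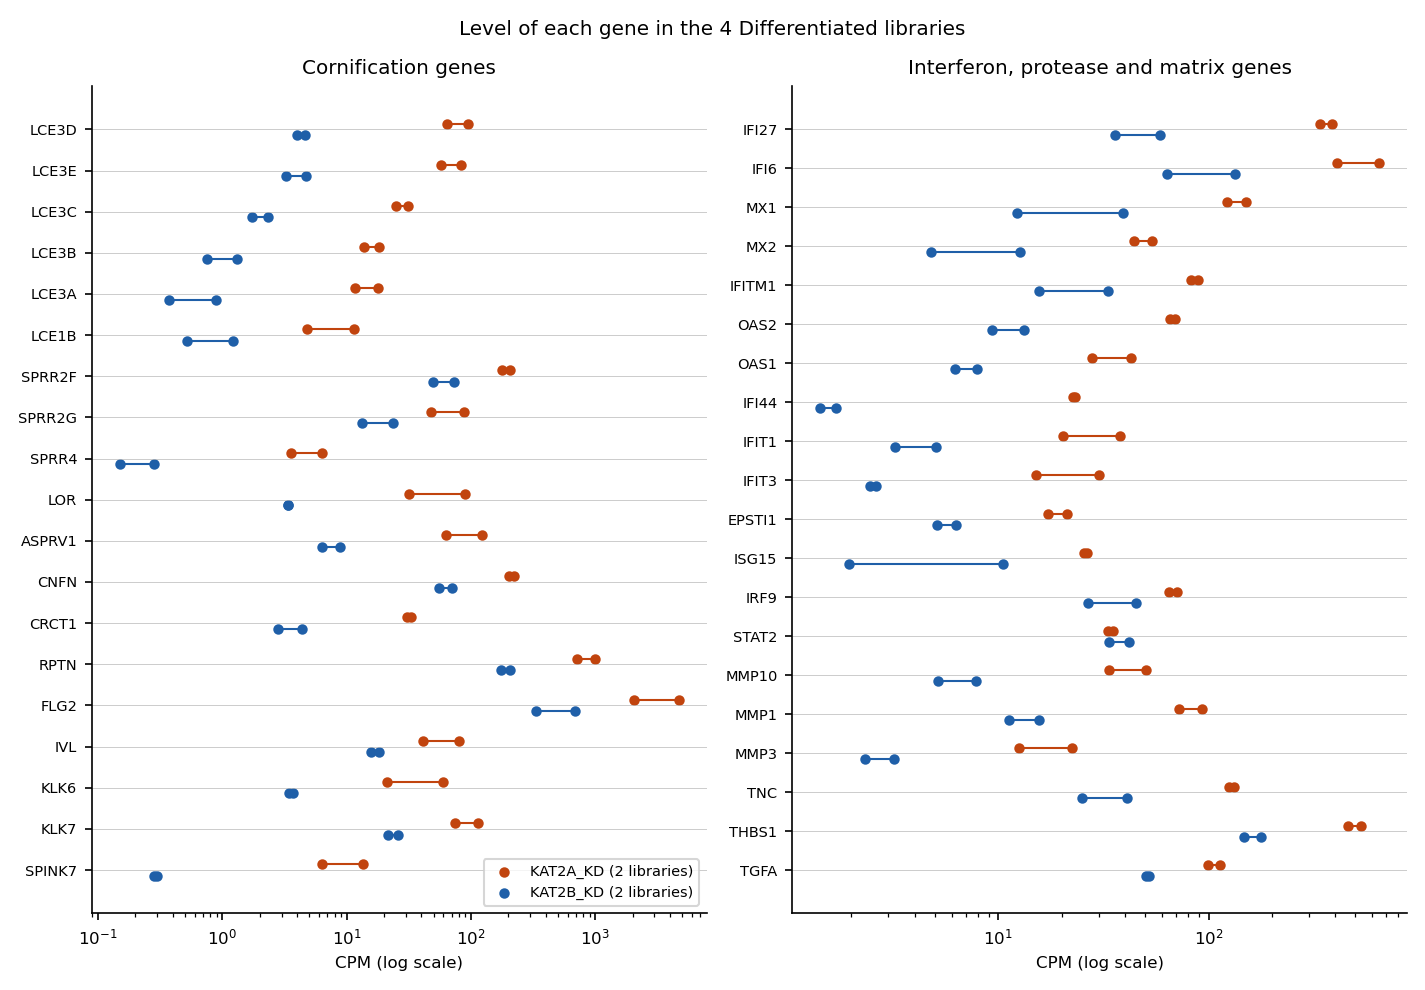
CPM on a log scale (x) of 19 cornification genes (left) and 20 interferon, protease and matrix genes (right) in each of the 4 Differentiated libraries, KAT2A_KD in orange-red and KAT2B_KD in blue, a line joining the 2 libraries of a group. The groups do not overlap for any gene shown except STAT2, while over all genes tested they do not overlap in 39.2%. LCE3D, for example, lies at 63.7 to 94.4 CPM in KAT2A_KD against 4.02 to 4.63 CPM in KAT2B_KD.

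Interferon response genes were the other large group that was higher in KAT2A_KD. Of 42 tested 19 rose and 0 fell, 41 had a log2 difference above 0, and the median was 1.63. In 39 of the 42 the groups did not overlap, against 39.2% of all genes tested. IFI44 stood at 23.2 and 22.6 CPM in KAT2A_KD against 1.68 and 1.42 CPM in KAT2B_KD, 14.8-fold higher (log2 3.88, SE 0.427, adjusted p = 2.91e-05). IFIT3, which works with IFIT1 in binding foreign RNA, stood at 30.2 and 15.1 CPM in KAT2A_KD against 2.62 and 2.47 CPM in KAT2B_KD (log2 3.15, SE 0.362, adjusted p = 4.55e-05). IFI27 stood at 339 and 388 CPM in KAT2A_KD against 58.5 and 36.1 CPM in KAT2B_KD (log2 2.94, SE 0.351, adjusted p = 6.56e-05). In these genes neither KAT2A_KD library came near the KAT2B_KD range.

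IFIT1 stood at 38.1 and 20.4 CPM in KAT2A_KD against 5.05 and 3.21 CPM in KAT2B_KD (log2 2.83), and the antiviral GTPase MX1 at 150 and 122 CPM in KAT2A_KD against 39.3 and 12.3 CPM in KAT2B_KD (log2 2.41). OAS2, which makes the 2′-5′ oligoadenylates that switch on RNase L, stood at 65.8 and 69.6 CPM in KAT2A_KD against 13.3 and 9.34 CPM in KAT2B_KD (log2 2.59). EPSTI1 and IFITM1 rose by 1.77 and 1.82, IFITM1 with 32.0% of its windows shared with other IFITM genes. These 8 genes passed without each library. In all 8 KAT2B_KD 2 was the lower of the KAT2B_KD libraries.

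The other calls included IFI6, IFI44L, IFIH1, ISG15, OAS1, MX2, DDX60, SAMD9, PARP9 and IFITM3. Of these 10, 8 were lost without KAT2A_KD 1 (adjusted p = 0.0502 to 0.206), 6 without KAT2A_KD 2 (0.0564 to 0.112), 5 without KAT2B_KD 1 (0.113 to 0.206) and 7 without KAT2B_KD 2 (0.0565 to 0.149). IRF9, a DNA-binding subunit of a factor that acts at the ISRE, did not pass at 64.6 and 71.0 CPM in KAT2A_KD against 45.4 and 26.7 CPM in KAT2B_KD (log2 0.92, adjusted p = 0.0599), nor did STAT2 at 33.4 and 35.1 CPM in KAT2A_KD against 42.0 and 33.6 CPM in KAT2B_KD (log2 -0.14, adjusted p = 0.872). IRF9 has 43.6% of its windows in other genes, and its value is uncertain.

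The ISRE motif, taken as GAAA followed after any 2 bases by GAAA and searched on both strands, was in 22 of 34 interferon response promoters in the RefSeq table (64.7%), against 3.65% of all promoters. It was in 14 of 16 whose gene passed (87.5%) and 8 of 18 whose gene did not (44.4%), so genes without a call held it too. A match of 6 genes that passed every time is shown with 10 bases on each side, read on the gene's strand, with the motif or its reverse complement in capitals (GRCh38.p14).
IFI44, chr1:78649761-78649790, plus strand: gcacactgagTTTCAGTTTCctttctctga
IFIT3, chr10:89327865-89327894, plus strand: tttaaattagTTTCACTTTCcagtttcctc
IFI27, chr14:94110618-94110647, plus strand: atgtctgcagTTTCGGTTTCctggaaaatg
IFIT1, chr10:89392510-89392539, plus strand: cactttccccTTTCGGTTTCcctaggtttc
MX1, chr21:41420559-41420588, plus strand: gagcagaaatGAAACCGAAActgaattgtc
EPSTI1, chr13:42992272-42992301, minus strand: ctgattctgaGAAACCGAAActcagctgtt
Binding at these places was not measured.

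Genes upstream of that response, and antigen presentation, did not pass. Of 25 tested sensors, ligands and receptors of interferon 0 passed (edgeR; 6 had an unadjusted p under 0.05, and DESeq2 called 1), with a median log2 difference of 0.19 (0.34 without KAT2A_KD 1), among them the kinase TBK1 (log2 0.73, adjusted p = 0.172), the receptor chain IFNAR2 (0.82, 0.174) and the adaptor MAVS (-0.69, 0.255). The value of IFNAR2 is uncertain, with 41.3% of its windows in other genes. Of 20 MHC class I genes 0 passed with edgeR or DESeq2 (3 at an unadjusted p under 0.05), with a median of 0.32 (0.14 without KAT2B_KD 2). B2M, the light chain of MHC class I, stood at 601 and 779 CPM in KAT2A_KD against 534 and 338 CPM in KAT2B_KD (log2 0.66, SE 0.229, adjusted p = 0.161). Of the leukocyte markers, CD68 stood at 57.2 and 60.9 CPM in KAT2A_KD against 46.4 and 25.2 CPM in KAT2B_KD and CD14 at 6.47 and 5.21 CPM in KAT2A_KD against 13.9 and 5.90 CPM in KAT2B_KD. PTPRC, the general leukocyte marker, was at no more than 0.491 CPM and CD3E at 0 in all 4.

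Some secreted protease and matrix genes rose as well. Of 27 matrix metalloprotease, TIMP and plasminogen genes 6 rose and 0 fell, with a median log2 difference of 0.56. MMP10 (stromelysin-2) stood at 50.2 and 33.8 CPM in KAT2A_KD against 7.86 and 5.16 CPM in KAT2B_KD (log2 2.70, SE 0.247, adjusted p = 5.44e-06). The collagenase MMP1 stood at 93.2 and 72.1 CPM in KAT2A_KD against 15.6 and 11.2 CPM in KAT2B_KD (log2 2.63, SE 0.251, adjusted p = 8.14e-06). MMP3 and the inhibitor TIMP2 rose by 2.67 and 1.93, so that proteases and an inhibitor were higher together. PLAUR rose by 1.77, lost without KAT2A_KD 1 or KAT2B_KD 2 (0.055 and 0.0815).

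Of 30 mesenchymal and TGF-beta response genes 8 rose and 0 fell, with a median log2 difference of 0.39 (0.73 without KAT2B_KD 1). The matrix glycoprotein TNC stood at 125 and 132 CPM in KAT2A_KD against 24.97 and 40.7 CPM in KAT2B_KD (log2 1.97, SE 0.299, adjusted p = 0.000811), and THBS1 (thrombospondin-1) at 531 and 463 CPM in KAT2A_KD against 148 and 178 CPM in KAT2B_KD (log2 1.61, SE 0.248, adjusted p = 0.000947). PMEPA1, SKIL, INHBA, CTGF and ITGA5 rose by 1.002 to 2.81. Of these 5, all were lost without KAT2A_KD 1 (adjusted p = 0.0771 to 0.499), INHBA without KAT2A_KD 2 (0.0527), INHBA, CTGF and ITGA5 without KAT2B_KD 1 (0.087 to 0.373), and SKIL, INHBA and ITGA5 without KAT2B_KD 2 (0.0517 to 0.0691). The intermediate filament gene VIM did not pass at 8.43 and 6.02 CPM in KAT2A_KD against 13 and 9.27 CPM in KAT2B_KD (log2 -0.61, adjusted p = 0.413). Among 5 tested fibroblast genes FAP rose (log2 1.10), lost without KAT2A_KD 1, KAT2B_KD 1 or KAT2B_KD 2 (0.249, 0.0646 and 0.144). The fibroblast marker COL1A1 stood at 35.1 and 38.6 CPM in KAT2A_KD against 32.4 and 31.0 CPM in KAT2B_KD, while COL1A2, COL3A1, DCN and LUM were at 0 to 0.655 CPM in the 4 libraries, and whether other cells had a part in these values was not tested.

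Of 30 EGF receptor ligand and AP-1 genes 5 rose, with a median log2 difference of 0.52 (0.31 without KAT2A_KD 1, 0.32 without KAT2B_KD 1). The ligand TGFA stood at 113 and 99.2 CPM in KAT2A_KD against 50.5 and 51.9 CPM in KAT2B_KD (log2 1.05, SE 0.151, adjusted p = 0.0005). The ligands AREG and EREG rose by 1.16 and 0.87, and DUSP6 and DUSP5, phosphatases induced by ERK signalling, by 1.13 and 1.32. These 4 were lost without KAT2A_KD 1 (adjusted p = 0.055 to 0.272) or KAT2B_KD 1 (0.0758 to 0.411), EREG and DUSP5 without KAT2A_KD 2 (0.139 to 0.148), and EREG and DUSP6 without KAT2B_KD 2 (0.0792 to 0.082). Of 13 interleukin-1 family genes IL1B rose by 1.46 and IL1A by 1.26, both lost without KAT2B_KD 1 (0.0729 to 0.0894) and IL1A without KAT2A_KD 1 (0.0987). Of 29 alarmin and barrier stress genes S100P and SERPINB1 rose. S100P was lost without KAT2A_KD 1 (0.290), SERPINB1 without KAT2A_KD 2 (0.163) or KAT2B_KD 1 (0.139), and both without KAT2B_KD 2 (0.0549 to 0.170). S100A8 did not pass at 4800 and 4948 CPM in KAT2A_KD against 5935 and 2882 CPM in KAT2B_KD (log2 0.14).

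Among calls whose mean log2 CPM was 1 or more and whose groups did not overlap, the highest log2 difference was that of TCN1, a gene outside the lists, which encodes haptocorrin, a carrier of vitamin B12. It stood at 52.8 and 31.9 CPM in KAT2A_KD against 0.281 and 0.747 CPM in KAT2B_KD, 78.0-fold higher (log2 6.29, SE 0.707, adjusted p = 6.56e-05). CEACAM5, a cell surface adhesion protein, stood at 18.9 and 16.4 CPM in KAT2A_KD against 1.03 and 0.448 CPM in KAT2B_KD (log2 4.60), with 16.4% of its windows in other genes. PADI1, which converts arginine of keratins to citrulline, stood at 20.3 and 15.3 CPM in KAT2A_KD against 0.655 and 0.971 CPM in KAT2B_KD (log2 4.42, SE 0.467, adjusted p = 2.27e-05). None of the 3 reached 2 CPM in KAT2B_KD, and all were above 10 CPM in both KAT2A_KD libraries.

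C6orf15 had 21.1 and 24.2 CPM in KAT2A_KD against 1.12 and 0.448 CPM in KAT2B_KD (log2 4.88, adjusted p = 0.0425), lost without each library (0.117 to 0.184) and with DESeq2 (0.514). HS3ST2, a heparan sulfate sulfotransferase, had 14 reads in KAT2A_KD against 0 in KAT2B_KD, at least 4.81-fold higher when 3 counts are taken as the limit for the group at 0. ELFN2 had 13 reads in KAT2A_KD against 0 in KAT2B_KD, at least 4.47-fold higher. Both calls rest on few reads, and were lost without KAT2A_KD 1 (0.636 for HS3ST2 and 0.055 for ELFN2), KAT2B_KD 1 (0.156 and 0.0932) or KAT2B_KD 2 (0.119 and 0.0815), ELFN2 also without KAT2A_KD 2 (0.0515).

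The 56 lower genes formed no large group among the lists. TREM2, a lipid-sensing receptor best known from macrophages and microglia, stood at 1.88 and 1.89 CPM in KAT2A_KD against 8.23 and 6.58 CPM in KAT2B_KD (log2 -1.96, SE 0.296, adjusted p = 0.00076). HR, a corepressor of the hair cycle, stood at 57.6 and 40.1 CPM in KAT2A_KD against 116 and 115 CPM in KAT2B_KD (log2 -1.24, SE 0.194, adjusted p = 0.00114). SLC8A1, a sodium and calcium exchanger, had 0 reads in KAT2A_KD against 24 in KAT2B_KD, a level at least 7.76-fold higher in KAT2B_KD. IPO4, a nuclear import receptor, stood at 5.40 and 5.75 CPM in KAT2A_KD against 14.3 and 14.9 CPM in KAT2B_KD (log2 -1.39, SE 0.177, adjusted p = 0.00013), with 58.4% of its windows in an overlapping gene model. With LOC101929516, these are the 5 lower genes that passed without each library; HR and LOC101929516 were picked for that after their values were seen.

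KIFC1, a mitotic kinesin, fell by 2.10 on the log2 scale, at 2.21 and 3.50 CPM in KAT2A_KD against 16.8 and 7.85 CPM in KAT2B_KD, lost without KAT2A_KD 1 (adjusted p = 0.0516). SFXN2 had 1 read in KAT2A_KD against 19 in KAT2B_KD, a ratio of KAT2B_KD over KAT2A_KD of 18.4 with a 95% counting interval of 2.93 to 766. ORC6, CYGB, ANO1, XYLB, GPNMB, IRAK1BP1 and DANCR fell by 1.53 to 2.59. GPNMB stood at 29.1 and 19.4 CPM in KAT2A_KD against 97.0 and 60.0 CPM in KAT2B_KD. Of the 12 lowest, with KAT2A itself, 10 were lost without KAT2A_KD 1 (0.0502 to 0.312), 8 without KAT2A_KD 2 (0.0587 to 0.217), 8 without KAT2B_KD 1 (0.0858 to 0.487) and 3 without KAT2B_KD 2 (0.0717 to 0.299).

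Growth-related lists had 0 or 1 call each. Of 44 ribosomal protein genes 0 passed with edgeR or DESeq2 (9 at an unadjusted p under 0.05, all lower), yet 0 had a log2 difference above 0 and the median was -0.61. In 17 of the 44 the groups did not overlap, a share near the 39.2% of all genes tested. RPL3 stood at 2279 and 1680 CPM in KAT2A_KD against 3884 and 2801 CPM in KAT2B_KD (log2 -0.76, adjusted p = 0.174). The list's median rested partly on KAT2B_KD 1, where the mean log2 level of the list was 10.97 against 10.11 in KAT2B_KD 2, and was -0.08 without that library. Of 42 replication genes ORC6 fell, lost without KAT2A_KD 1 (adjusted p = 0.0618), KAT2A_KD 2 (0.184) or KAT2B_KD 2 (0.299), and the median was -0.26. Of 42 mitosis genes 0 passed with either tool (8 at an unadjusted p under 0.05, 7 of them lower), with a median of -0.26 that was -0.05 without KAT2B_KD 2. Of 32 MYC network genes MYCL fell by 1.14, lost without KAT2A_KD 1, KAT2A_KD 2 or KAT2B_KD 1 (0.210, 0.0584 and 0.159), and the median was -0.24, or -0.12 to -0.54 with 1 library left out.

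Of 25 oxidative stress genes, the haem oxygenase HMOX1 rose by 1.93, and TKT, which encodes transketolase, fell by 1.10. HMOX1 was lost without KAT2A_KD 1 (adjusted p = 0.213) or KAT2B_KD 2 (0.0916), and TKT without KAT2A_KD 1 (0.154), KAT2A_KD 2 (0.117) or KAT2B_KD 1 (0.304). Of 36 amino acid stress genes MTHFD2, a mitochondrial folate enzyme, rose by 1.06, lost without KAT2A_KD 2 (0.0847) or KAT2B_KD 1 (0.0734). Of 29 hypoxia and glycolysis genes ANKRD37 rose by 2.16, lost without KAT2A_KD 1, KAT2B_KD 1 or KAT2B_KD 2 (0.298, 0.184 and 0.101).

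None of the genes for partners of the 2 acetyltransferases passed (edgeR). Of 31 other SAGA and ATAC subunits 0 passed with edgeR or DESeq2, and 0 had an unadjusted p under 0.05. The median log2 difference was -0.09 (0.01 without KAT2B_KD 1), and TADA3, a subunit of the acetyltransferase module, stood at 38.2 and 51.9 CPM in KAT2A_KD against 66.0 and 59.2 CPM in KAT2B_KD (log2 -0.48, SE 0.23, adjusted p = 0.355). Of 18 other lysine acetyltransferases 0 passed with edgeR (5 at an unadjusted p under 0.05, all lower) and 1 with DESeq2, with a median of -0.13 (0.13 without KAT2B_KD 2), and EP300 had log2 -0.26 (SE 0.331, adjusted p = 0.803). Of 18 lysine deacetylases 0 passed with either tool and 0 had an unadjusted p under 0.05, with a median of -0.15. The p53 target, Notch pathway, cholesterol synthesis and chemokine lists also had 0 edgeR calls, with medians of -0.04, -0.09, 0.11 and 0.88. The Notch median was 0.04 without KAT2A_KD 1 and 0.23 without KAT2B_KD 2, the cholesterol median -0.06 without KAT2A_KD 1 and the chemokine median 0.06 without KAT2A_KD 1. At an unadjusted p under 0.05 they had 4, 3, 3 and 3 genes, and DESeq2 called 0, 1, 0 and 1.

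The same contrast was made at the earlier stages. KAT2A_KD against KAT2B_KD gave 84 genes at Subconfluent (0.533%), 75 higher (0.476%) and 9 lower (0.0571%) in KAT2A_KD, and 45 at Confluent (0.286%), 40 higher (0.254%) and 5 lower (0.0317%). The change of the difference was tested as an interaction. From Confluent to Differentiated 11 genes passed (0.0698%), 8 in the direction of KAT2A_KD (0.0508%) and 3 in that of KAT2B_KD (0.019%), and from Subconfluent to Differentiated 48 (0.305%), 27 (0.171%) and 21 (0.133%). The Differentiated libraries enter both changes, so the 2 counts are not independent. Of the 11, 7 also passed without KAT2A_KD Differentiated 2 or KAT2B_KD Differentiated 2, 5 without KAT2B_KD Differentiated 1, and 0 without any 1 of the other 5 libraries.

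ZBED2, a transcription factor gene of keratinocytes, had log2 differences of -0.25 ± 0.219 (SE) at Subconfluent, -0.06 ± 0.226 at Confluent and 2.17 ± 0.238 at Differentiated. Its levels were 24.8 and 20.6 CPM in KAT2A_KD against 31.2 and 22.9 CPM in KAT2B_KD at Subconfluent, and 29.5 and 26.1 CPM in KAT2A_KD against 6.36 and 5.98 CPM in KAT2B_KD at Differentiated. The KAT2B_KD levels at Differentiated lay below all the others. ALDH1A3, which makes retinoic acid, stood at 641 and 484 CPM in KAT2A_KD against 148 and 153 CPM in KAT2B_KD at Differentiated, and 835 and 852 CPM in KAT2A_KD against 912 and 971 CPM in KAT2B_KD at Subconfluent. AMIGO2, an adhesion molecule, was the lower gene in KAT2A_KD before differentiation without passing (log2 -0.43 and -0.48) and 1.23 higher at Differentiated.

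For these 3 genes the change from Subconfluent passed at adjusted p = 0.00282, 0.00332 and 0.00849 and was kept without each of the 8 libraries. The change from Confluent passed at 0.0163 for each and was lost without KAT2A_KD Confluent 1, KAT2A_KD Confluent 2, KAT2A_KD Differentiated 1, KAT2B_KD Confluent 1 or KAT2B_KD Confluent 2 (0.0547 to 0.149). PTHLH, which encodes a parathyroid hormone-related peptide, SLC37A2, PORCN, IFIT3 and IFI27 also had a difference at Differentiated that was larger than at either earlier stage, the difference of SLC37A2 itself being lost without KAT2A_KD Differentiated 1 (0.0502) and that of PORCN without KAT2A_KD Differentiated 1 or KAT2B_KD Differentiated 2 (0.213 and 0.0732). IFI27 had log2 differences of 0.38 ± 0.357 (SE) at Subconfluent, 0.23 ± 0.355 at Confluent and 2.94 ± 0.351 at Differentiated, and stood at 6.73 to 16.7 CPM in the 8 earlier libraries of both groups. IFI44 passed for the change from Subconfluent alone (adjusted p = 0.0295). None of the 42 interferon response genes passed with edgeR at Subconfluent or at Confluent, where 4 and 2 had an unadjusted p under 0.05 and DESeq2 called 0. SLC8A1 and IPO4 passed in the other direction, SLC8A1 with no fold since it had 0 reads in KAT2A_KD, and IPO4 at 52.8 to 70.9 CPM in the 8 earlier libraries.

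**Figure D4:**
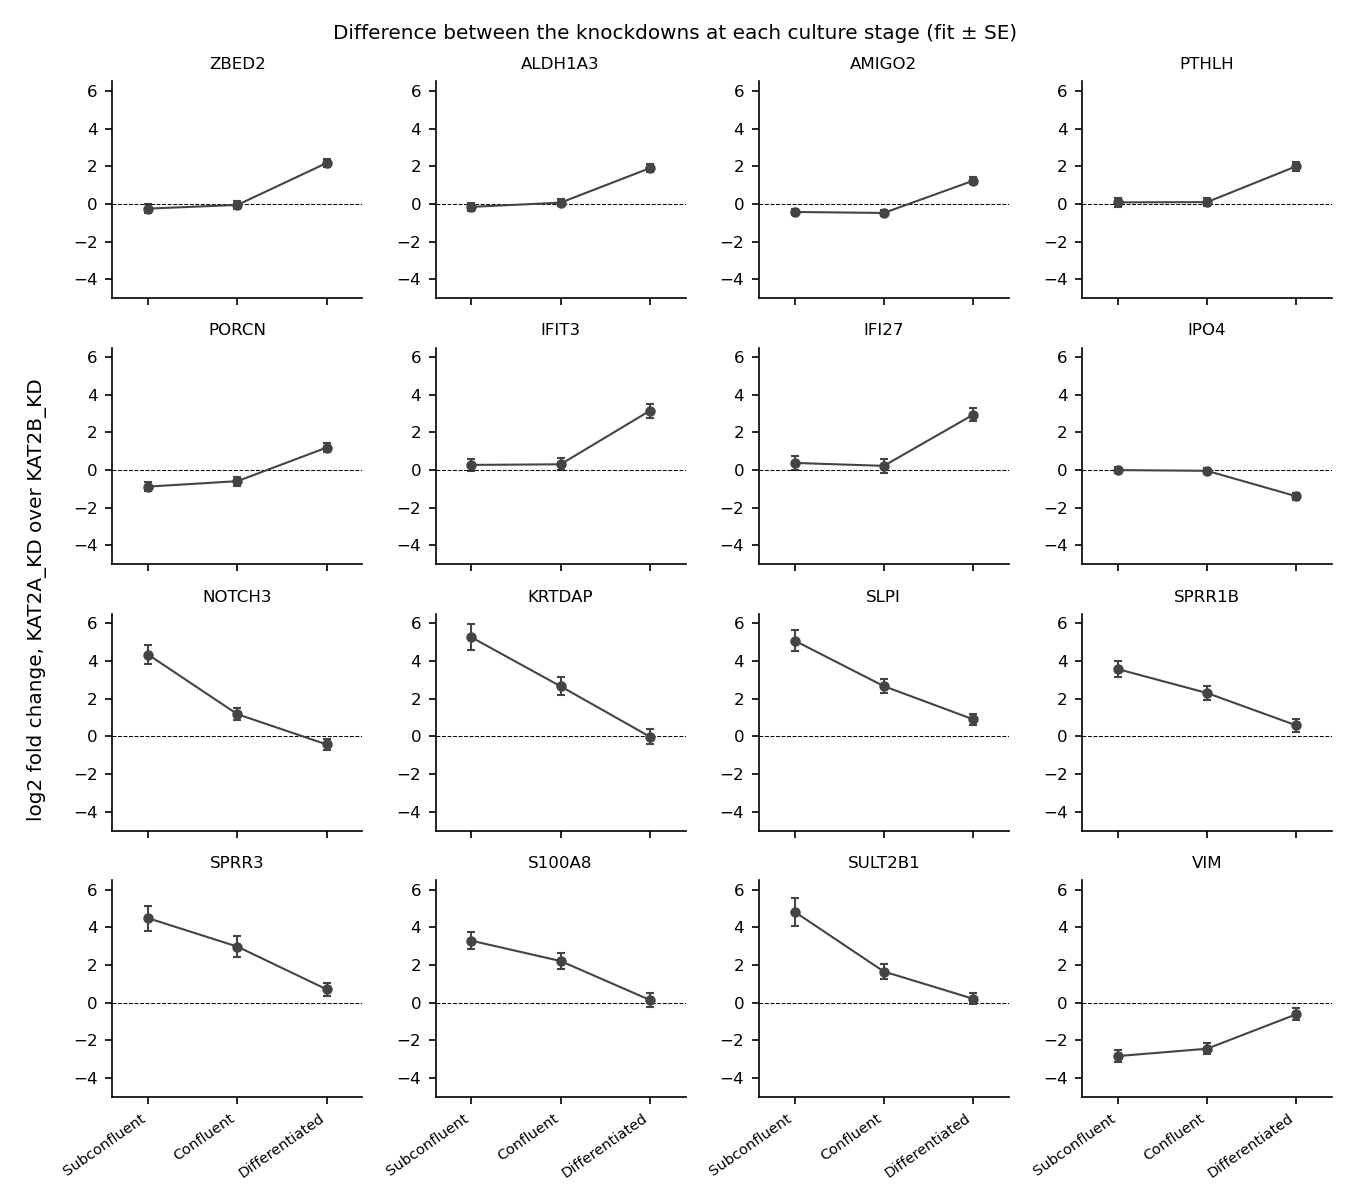
Log2 fold change of KAT2A_KD over KAT2B_KD (y, fit ± SE, 2 libraries a group) at the Subconfluent, Confluent and Differentiated stages (x) for 16 genes whose difference changed from Subconfluent to Differentiated. The first 7 genes are near or below 0 at the earlier stages and above 1 at Differentiated, IPO4 lies below 0 at Differentiated, and 7 of the other 8 are above 2 at Subconfluent and under 1 at Differentiated, with VIM the reverse in sign. The Subconfluent point of SULT2B1 is not a reliable fold, since KAT2B_KD had 0.152 and 0 CPM there.

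A second set passed at Subconfluent and did not pass at Differentiated. NOTCH3, a Notch receptor, stood at 7.24 and 8.82 CPM in KAT2A_KD against 0.152 and 0.588 CPM in KAT2B_KD at Subconfluent, and at 160 and 154 CPM in KAT2A_KD against 163 and 259 CPM in KAT2B_KD at Differentiated. Its difference was 4.35 ± 0.494 (SE) and -0.43 ± 0.301, and the change passed (adjusted p = 0.00193) without each library as well. KRTDAP, a secreted protein of differentiated keratinocytes, stood at 5.999 and 8.40 CPM in KAT2A_KD against 0.304 and 0.0653 CPM in KAT2B_KD at Subconfluent, and at 6334 and 4456 CPM in KAT2A_KD against 7166 and 3739 CPM in KAT2B_KD at Differentiated. The protease inhibitor SLPI, SPRR1A, SPRR1B, SPRR3 and S100A8 were higher in KAT2A_KD at Subconfluent by 3.30 to 5.09. With KRTDAP they had -0.02 to 0.91 at Differentiated, where none passed. All of them, KRTDAP included, also passed at Confluent, higher in KAT2A_KD by 2.21 to 2.98 (edgeR, adjusted p = 0.00292 to 0.0174). Their changes from Confluent to Differentiated did not pass (adjusted p = 0.126 to 0.379). NOTCH3 did not pass at Confluent (log2 1.18, adjusted p = 0.242). KAT2B_KD levels at Subconfluent were low, at 0.304 and 0.0653 CPM for SLPI and 0.152 and 0.327 CPM for SPRR3. The sizes of these folds are therefore uncertain. SULT2B1, a cholesterol sulfotransferase, stood at 2.78 and 1.68 CPM in KAT2A_KD against 0.152 and 0 CPM in KAT2B_KD at Subconfluent, too low for a fold. It did not pass at Differentiated (log2 0.21).

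VIM went the opposite way, with -2.83 ± 0.307 (SE) at Subconfluent and -0.61 ± 0.324 at Differentiated. At Confluent VIM passed as well, at -2.445 ± 0.305 (edgeR, adjusted p = 0.00111), and its change from Confluent did not pass (adjusted p = 0.153). PLA2G4F, a cytosolic phospholipase, was lower in KAT2A_KD at Differentiated, at 26.2 and 25.6 CPM against 66.8 and 59.9 CPM in KAT2B_KD (log2 -1.29, adjusted p = 0.0141), a call lost without KAT2A_KD 1, KAT2A_KD 2 or KAT2B_KD 1 (0.134, 0.103 and 0.106). At Subconfluent it had 1.11 and 0.672 CPM in KAT2A_KD against 0 and 0.0653 CPM in KAT2B_KD. The changes of KRTDAP and SLPI were lost without KAT2B_KD Subconfluent 2 (0.0711 and 0.0905). Of the 48 changes from Subconfluent, 19 passed without KAT2A_KD Differentiated 1, 24 without KAT2A_KD Differentiated 2, 27 without KAT2B_KD Differentiated 1, 29 without KAT2B_KD Differentiated 2, 17 without KAT2A_KD Subconfluent 1, 10 without KAT2A_KD Subconfluent 2, 9 without KAT2B_KD Subconfluent 1 and 17 without KAT2B_KD Subconfluent 2. The change of SPRR3 was lost without any 1 of the 8 libraries, those of SPRR1A, SPRR1B and SULT2B1 without 3 of the 8, and those of S100A8 and VIM without 6 of the 8. Of the 16 LCE genes 2 passed at Subconfluent and 2 at Confluent, against 16 at Differentiated, and for none of them did the change of the difference pass with edgeR or DESeq2 (1 from Subconfluent and 3 from Confluent at an unadjusted p under 0.05). The SPRR list had 4 calls at Subconfluent and 3 at Confluent, all higher in KAT2A_KD, against 7 at Differentiated, with median log2 differences of 2.95, 1.98 and 1.64. The granular and envelope list had 3, 1 and 11 calls in that order of stages, all higher, with medians of 1.26, 2.55 and 1.73. The kallikreins and inhibitors had 1, 0 and 9, with medians of 1.98, 1.59 and 1.81, and at Confluent 9 had an unadjusted p under 0.05 and DESeq2 called 3. The alarmin and barrier stress genes had 8, 6 and 2, with medians of 0.34, 0.67 and 0.45.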

How the data were processed

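Read counts per gene were deposited by the authors. FastQC, Bowtie2, featureCounts and DESeq2 with the build hg19 are named, per the submitters' processing notes, and their versions, the annotation, the strand setting and the treatment of multi-mapping reads are not given in the sources used here. Antisense and overlapping genes are therefore uncertain. A deposited table of signal values is the counts over a size factor for each library (largest relative deviation 5.0e-07), and was used to restore 28 of 28 symbols that had become dates. A deposited sample table gives a replicate number, genotype and stage (other information than measurements). The counts include 1 column that matched no sample and was not used. The 4 libraries held 13517620 to 16054003 counts, all 24 at least 8010178. Counting intervals, and the limit of 3 counts used for a group at 0, hold counting error alone.

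The analysis used edgeR 4.0.16 in R 4.3.3. Of 26364 genes 21173 had a read and 15757 passed filterByExpr by group. A quasi-likelihood fit with TMM scaling covered 24 libraries in 12 groups, so that the libraries outside the contrast, NT included, enter the estimate of the spread, the filter and the scaling (common biological coefficient of variation 0.218, 12 residual degrees of freedom). Benjamini-Hochberg adjustment ran over every gene in the fit, and a gene passed under 0.05. Alternatives were DESeq2 1.42.0, other scaling and filters, fewer libraries, a replicate term, and each library left out.

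Shared sequence was counted as 50-base windows of GENCODE 29 transcripts, with 368 of 375 called genes matched. Promoters are RefSeq, GRCh38.p14, with 34 of 42 interferon, 15 of 16 LCE and 8 of 10 SPRR genes matched. Of 4 motifs searched, AACCGGTT (GRHL factors) was in 0 of the 5 lists' promoters and 0.117% of all.

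The comparison, the 32 gene lists and the rules were chosen with earlier results of these data known. The text names KAT2A and KAT2B, the 12 highest and 12 lowest log2 differences among calls whose mean log2 CPM is 1 or more and whose groups do not overlap, the 6 lowest p-values of each change between stages, up to 4 members of each list by p, and list members whose value a sentence states. Results of some genes that these rules name are not reported here.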

Additional observations from a re-analysis of the deposited data

Results flagged for a closer look

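For the genes here the difference between KAT2A_KD and KAT2B_KD was not the same at the Differentiated stage as at an earlier one, by a test of that change itself (edgeR interaction, adjusted over all genes tested). Each value is the log2 difference of KAT2A_KD over KAT2B_KD at Differentiated minus that at the earlier stage. Against Confluent, it was 2.23 for ZBED2, 1.71 for AMIGO2, 1.83 for ALDH1A3, 1.61 for SLC37A2, 1.905 for PTHLH and 1.785 for PORCN. The interferon response genes IFIT3 and IFI27 had 2.84 and 2.71. IPO4 and PLA2G4F had -1.35 and -2.785. Each of these 10 was lost without at least 5 of the 8 libraries in the change.

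Against Subconfluent, the values of the genes that rose toward KAT2A_KD were 2.42 for ZBED2, 2.06 for ALDH1A3, 1.66 for AMIGO2, 2.075 for PORCN, 1.92 for PTHLH and 1.47 for SLC37A2. IFIT3, IFI27 and IFI44 had 2.88, 2.56 and 3.24. MTHFD2 had 1.55, INHBA 1.55, TGFA 1.07 and PMEPA1 1.76. VIM had 2.22, with a lower level in KAT2A_KD at both stages. The values in the other direction were -4.77 for NOTCH3, -5.28 for KRTDAP, -4.18 for SLPI, -2.99 for SPRR1B, -3.135 for SPRR1A, -3.78 for SPRR3 and -3.15 for S100A8, all higher in KAT2A_KD at Subconfluent. None of these exceeded 2.68 CPM in KAT2B_KD at Subconfluent, so the sizes of their changes are uncertain. IPO4 had -1.39, KIFC1 -2.13, TREM2 -1.87 and HR -1.33. The changes of NOTCH3, ZBED2, ALDH1A3 and AMIGO2 passed without each of the 8 libraries, and those of IFI44, INHBA, TGFA and SPRR3 were lost without each.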

How the results depend on the processing

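With 2 libraries a group, counts of calls moved between settings. All of the 375 genes kept their direction wherever they were tested. They were chosen by their difference in the same libraries, so a kept direction was largely given in advance. DESeq2 called 628 (479 higher in KAT2A_KD, 149 lower), no filter on low counts 675 (532 and 143), the 8 Differentiated libraries alone 197 (191 and 6) and the 4 compared libraries alone 200 (188 and 12). Without the NT libraries 290 passed, with RLE scaling 376 and with a filter at 1 CPM 378. With 1 library left out the range was 97 to 292 genes (92 to 239 higher, 5 to 68 lower). For the change from Confluent, DESeq2 called 79 (54 and 25) and no filter 130 (75 and 55), with 0 to 11 (0 to 8 and 0 to 3) when 1 library was left out; where it was 0, edgeR gave 895 to 1051 genes at an unadjusted p under 0.05, and DESeq2 was not run without single libraries. For the change from Subconfluent, DESeq2 called 140 (82 and 58), no filter 179 (89 and 90), the fit without NT 31 (15 and 16), and 1 library left out 9 to 48 (4 to 24 and 4 to 24). Interferon response genes called higher numbered 29 with DESeq2, 33 with no filter and 10 to 15 with 1 library left out. Granular genes numbered 19 with no filter and 4 to 10 with 1 left out, LCE genes 7 to 16, SPRR genes 0 to 7 and kallikreins and inhibitors 3 to 8. With a replicate block 441 genes passed (358 and 83), with 15 (10 and 5) and 49 (26 and 23) for the changes. Only 2 pairs exist, with a correlation of 0.173 across genes, and no label gives a shared batch, so the main comparison has no block. No named gene reversed, with the same limit. The causes of these moves were not tested.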

Other observations

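Some gene families that are not lists of their own also had several members among the genes that rose in KAT2A_KD. They were picked after their values were seen, so their counts carry no test. Of 7 CEACAM genes tested 5 rose, with a median log2 difference of 3.61. CEACAM6 stood at 9.99 and 7.36 CPM in KAT2A_KD against 0.655 and 0.448 CPM in KAT2B_KD (log2 3.97), and CEACAM1 at 8.60 and 5.93 CPM in KAT2A_KD against 0.748 and 0.448 CPM in KAT2B_KD (log2 3.61). Both passed without each of the 4 libraries, as did CEACAM5. CEACAM3 rose by 3.65 and was lost without KAT2A_KD 1 (adjusted p = 0.114) or KAT2B_KD 2 (0.0956), and CEACAM8 rose by 3.004 and was lost without each library (0.0584 to 0.205). Reads of these similar genes can be shared, and the separate values are uncertain.

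Of 4 peptidylarginine deiminase genes 3 rose, PADI1, PADI3 and PADI4. PADI3, which acts on trichohyalin and filaggrin, stood at 2.21 and 1.98 CPM in KAT2A_KD against 0.748 and 0.673 CPM in KAT2B_KD (log2 1.55), lost without each library (0.0895 to 0.205). PADI4 had 26 reads in KAT2A_KD against 2 in KAT2B_KD, a ratio of 13.4 with a 95% counting interval of 3.36 to 116.5, and was lost without each library (0.0566 to 0.281). Of 4 TMPRSS11 genes, which encode serine proteases of squamous epithelia, TMPRSS11E stood at 67.6 and 72.6 CPM in KAT2A_KD against 21.5 and 16.1 CPM in KAT2B_KD (log2 1.90), lost without KAT2B_KD 2 (0.0592). TMPRSS11D rose by 2.02, lost without KAT2A_KD 1, KAT2A_KD 2 or KAT2B_KD 2 (0.104 to 0.127). Of 12 clade B serpins 4 rose, among them SERPINB1 of the alarmin and barrier stress list. SERPINB7 stood at 2010 and 1983 CPM in KAT2A_KD against 1104 and 915 CPM in KAT2B_KD (log2 0.98, SE 0.179, adjusted p = 0.00451) and passed without each library.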
